A study of Homo sapiens with 6 samples.

Results

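The genes examined here are 35 transcriptional targets of p53 and of its feedback circuit, from MDM2 and CDKN1A to DDB2 and TNFRSF10B. They were taken by gene symbol from a list of known pathway members, which was chosen with earlier results of these data known. All 35 were found among the 30270 genes of the table, on 16 chromosomes. Total RNA depleted of rRNA was sequenced from wild-type HEK 293T cells (WT, 3 libraries) and from HEK 293T cells with a double knockout of TENT3A and TENT3B (ΔTUT4/7, 3 libraries), the enzymes also named TUT4 and TUT7, which add uridines to RNA 3′ ends. Both groups were untreated, were grown in DMEM with fetal bovine serum, and were labelled as biological replicates. The ΔTUT4/7 cells were a line obtained from another laboratory, so the deletion cannot be told apart from other differences between the lines, and the p-values measure the spread between libraries of 1 line per group.

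The transcription factor p53 is activated by DNA damage and other stress, binds response elements near its target genes and raises their transcription. Its targets halt the cell cycle, start apoptosis or repair DNA, and some of them, MDM2 first, shut p53 down again. HEK 293T cells carry the SV40 large T antigen, which binds p53 and restrains its activity, so target levels in this line are read against that setting. The study compared the lines to learn how the transcriptome changes without uridylation by TUT4/7, and the comparison here asks where p53 targets lay in it.

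Library totals ran from 18757228 to 33148937 counts. The levels below are CPM, counts scaled to a common library size with TMM factors, given per library or as mean ± SD over 3 libraries, and a gene was called at an adjusted p (FDR) under 0.05 in edgeR's quasi-likelihood test over 23952 tested genes. All 35 genes passed the limit on low counts, 34 of them with a mean of 50 counts or more. The libraries labelled ΔTUT4/7 had more TUT4 RNA, not less (211 ± 5.08 CPM in WT against 906 ± 21.4 CPM in ΔTUT4/7), and less TUT7 RNA (62.6 ± 2.17 CPM in WT against 26.3 ± 1.04 CPM in ΔTUT4/7). TUT4 thus went against its label, although counts summed over a gene include exons outside a deletion, and all directions below rest on the labels. Of the 8 embryonic kidney line markers, 4 were called higher, VIM among them, and 4 lower, KRT8 and NES among them, with a median log2 fold change of -0.13. Their summed level was 599 to 630 CPM in WT and 1381 to 1401 CPM in ΔTUT4/7, of which VIM, an intermediate filament gene, made up most. Leukocyte markers (3 of 5 listed were in the table) summed to at most 4.34 CPM in any library and endothelial markers (3 of 4) to at most 1.07 CPM. Fibroblast markers (2 of 5), mostly COL1A1, summed to 21.2 to 25.6 CPM in WT and 8.97 to 10.98 CPM in ΔTUT4/7. The part of these differences in the results was not tested. In bulk RNA, fewer cells with a transcript and less of it per cell cannot be told apart.

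Most p53 targets were lower in ΔTUT4/7. Of the 35 genes, 30 fell, 1 rose (TRIAP1) and 4 did not pass the test (PPM1D, PLK2, BBC3 and TP53I3). Over all tested genes 29.0% were called lower and 28.6% higher. The fall was 2-fold or more in 17 genes, against 12.4% of all tested genes, and 0 rose 2-fold or more, against 5.90%. In the 15575 tested genes whose mean count reached 50, 31.7% were called lower and 8.26% were lower by that much. Over the 35 genes the median log2 fold change was -0.98, and over all tested genes it was -0.02. Without the TNFRSF10 genes, which share a locus, 26 of 31 genes were called lower, 13 of them at least 2-fold. The median of these 31 was -0.83. In 31 of the full 35 genes every ΔTUT4/7 library lay under every WT library, which held for 31.8% of all tested genes. Together the 35 genes took 0.331% to 0.371% of all counts in the WT libraries, but 0.170% to 0.172% in the ΔTUT4/7 libraries.

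**Figure D1:**
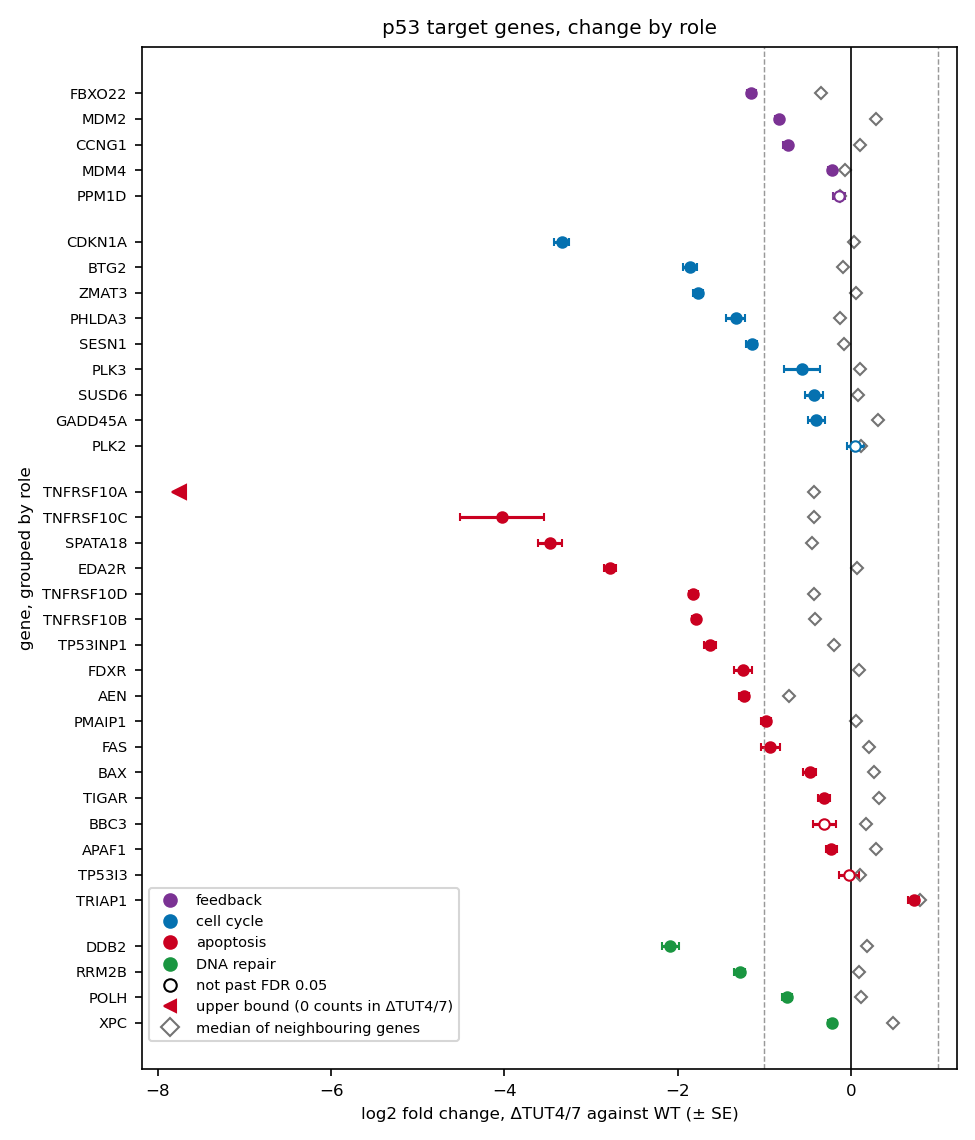
Log2 fold change of the 35 p53 target genes in ΔTUT4/7 against WT (x axis) with its standard error (n = 3 libraries per group), grouped by role, with filled points past an FDR of 0.05 and open points not past it. Diamonds mark the median of expressed genes within 5 Mb, dashed lines a 2-fold change, and the triangle of TNFRSF10A an upper bound at -7.76. All 35 genes lie left of their diamond, and TRIAP1 is the only filled point right of 0.

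p53 binds 2 adjacent half-sites of 10 bases, each with a fixed C and G around a central pair of A or T. The letters of this element, called the p53 half-site pair, were searched without a spacer within 3000 bases on each side of the annotated start of each gene's canonical transcript (hg38, GENCODE release 44), allowing 2 mismatches outside the fixed C and G. The pattern reads the same on both strands. Of the 35 genes, 16 (45.7%) held a match, against 4.65% of 20007 protein-coding genes, and 7 held one with at most 1 mismatch, against 0.635%. The genes are known p53 targets, so the share is given as a description with no test. A match is a run of letters and not evidence of binding. The elements are shown for 6 genes that fell strongly and for 2 whose change was small or not called. The capitals mark the fixed C and G of each half-site, and each element is written 5′ to 3′ on the strand of its gene.
CDKN1A: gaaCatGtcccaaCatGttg
EDA2R: gaaCatGcctggaCgtGtcc
SPATA18: ggaCatGtgtgtaCatGccc
DDB2: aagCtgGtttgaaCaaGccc
BTG2: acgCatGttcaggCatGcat
ZMAT3: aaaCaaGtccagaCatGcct
GADD45A: gaaCatGtctaagCatGctg
PLK2: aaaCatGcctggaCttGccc

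With positions taken at the 5′ end of each element, relative to the transcript start, the CDKN1A element lay upstream at position -2265 (chr6:36676449-36676468, plus strand) and that of BTG2 upstream at -1877 (chr1:203303642-203303661, plus strand). The element of DDB2 began at -5 and spanned the start (chr11:47214969-47214988, plus strand). Those of EDA2R (chrX:66638713-66638732, minus strand), SPATA18 (chr4:52051957-52051976, plus strand) and ZMAT3 (chr3:179070188-179070207, minus strand) lay in intron 1, that of GADD45A (chr1:67686775-67686794, plus strand) in intron 3. PLK2 held a match without a mismatch upstream at -2207 (chr5:58462274-58462293, minus strand), as ZMAT3 did in its intron, yet PLK2 was not called and ZMAT3 fell by 1.77 on the log2 scale. The 16 genes with a match had a median log2 fold change of -1.26 and 15 of them were called lower. The 19 genes without one had a median of -0.56 and 15 were called lower. Over all tested genes 29.0% were called lower.

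**Figure D2:**
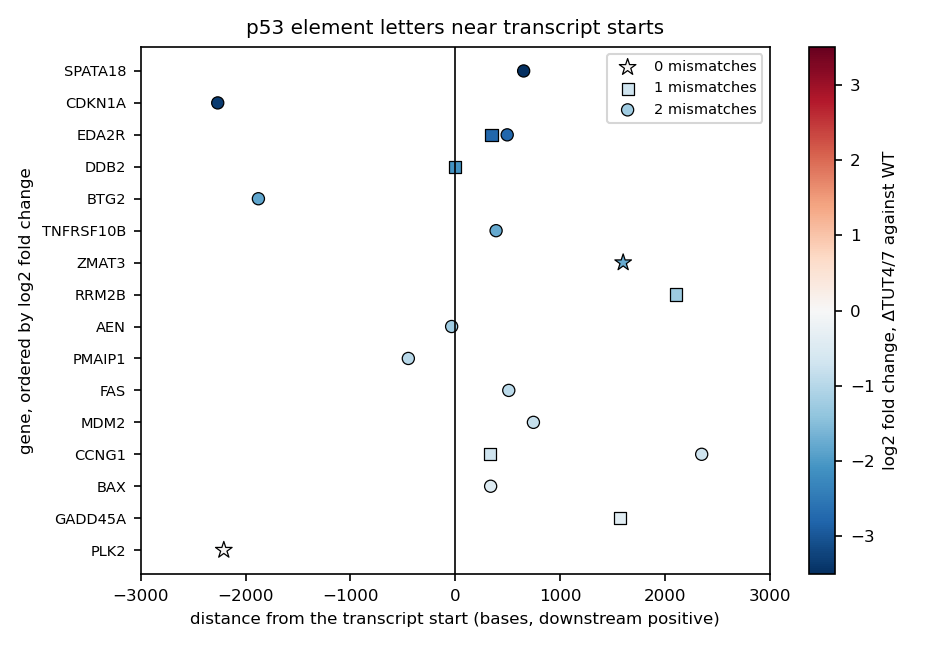
Position of each p53 element match (x axis, bases from the transcript start) in the 16 genes that held one, ordered from the lowest log2 fold change at the top and coloured by it, with the symbol giving the number of mismatches. Matches lie on both sides of the start, and PLK2, whose match has no mismatch, stands at the bottom with a log2 fold change of 0.05.

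The feedback genes encode the proteins that limit p53. MDM2, the ubiquitin ligase that marks p53 for degradation, had 609, 576 and 538 CPM in the WT libraries and 309, 329 and 330.4 CPM in those of ΔTUT4/7. All 3 ΔTUT4/7 libraries lay well under the lowest WT library. On the log2 scale the difference was -0.83 ± 0.05 SE, with an adjusted p of 3.9e-12. MDM4, the MDM2 partner that blocks the activation domain of p53, differed far less, with 242, 255 and 247 CPM in the WT libraries and 211, 211 and 216 CPM in those of ΔTUT4/7. Its groups did not overlap, and its log2 fold change of -0.22 ± 0.04 SE passed the test (adjusted p 0.000116). The ratio of MDM2 to MDM4 counts needs no scaling between libraries. Its log2 value was 1.33, 1.18 and 1.12 in WT and 0.55, 0.64 and 0.61 in ΔTUT4/7, a difference of -0.61 with no overlap. The exact two-sided permutation test gave p = 0.10, the smallest it can give with 3 against 3.

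Among the other feedback genes, CCNG1, the cyclin that recruits a phosphatase to MDM2, had 407 ± 26.1 CPM in WT against 245 ± 6.04 CPM in ΔTUT4/7, which is -0.73 ± 0.05 SE on the log2 scale. It was the most abundant of the 35 genes per exon length in WT, at 132 ± 8.43 RPKM (SD, n = 3), ahead of MDM2 at 69.2 ± 4.3 RPKM. FBXO22, the substrate receptor of a ubiquitin ligase that acts on p53, fell most in the feedback group, from 217, 233 and 214 CPM in WT to 95.4, 107 and 97.1 CPM in ΔTUT4/7. The libraries of each group lay close together and the log2 fold change was -1.15 ± 0.05 SE. PPM1D, the phosphatase WIP1 that reverses damage signalling, overlapped between the groups, with 64.3, 57.3 and 52.8 CPM in the WT libraries and 51.6, 56.4 and 50.1 CPM in those of ΔTUT4/7. It was not called (log2 fold change -0.14 ± 0.07 SE, adjusted p 0.0982), but was called lower in 5 of 14 alternatives. In all, 4 of 5 feedback genes fell, with a median of -0.73, and 1 fell at least 2-fold. Over all tested genes 29.0% were called lower and 12.4% were at least 2-fold lower.

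Most genes of cell cycle and growth control fell, CDKN1A the most. CDKN1A encodes p21, the inhibitor of cyclin-dependent kinases through which p53 stops the cycle, and had 83.5, 76.0 and 74.1 CPM in the WT libraries and 7.93, 6.29 and 8.68 CPM in those of ΔTUT4/7. The highest ΔTUT4/7 library was thus under any WT library by a wide margin. CDKN1A was 10.1-fold lower (log2 fold change -3.34 ± 0.09 SE, adjusted p 9.45e-17). DINOL, an antisense lncRNA that overlaps the CDKN1A locus, was also lower, at 2.60 ± 0.364 CPM in WT against 0.137 ± 0.0781 CPM in ΔTUT4/7. It was singled out after its values were seen, and without a stated read strand its reads and those of CDKN1A cannot be told apart where they overlap, although DINOL had only 3.30% of the mean count of CDKN1A.

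Further genes of this group fell together with CDKN1A. BTG2, an antiproliferative cofactor of mRNA deadenylation, had 56.7, 52.8 and 47.2 CPM in the WT libraries and 14.3, 13.7 and 15.2 CPM in those of ΔTUT4/7. ZMAT3, a zinc finger RNA-binding protein that regulates splicing, had 176, 183 and 161 CPM in the WT libraries and 51.1, 48.1 and 53.5 CPM in those of ΔTUT4/7. Both groups were tight, and the log2 fold changes were -1.86 ± 0.08 SE and -1.77 ± 0.06 SE. PHLDA3, which competes with AKT for membrane lipids, fell by 1.33 on the log2 scale and SESN1, a sestrin that restrains mTORC1, by 1.15. Smaller falls were called for GADD45A (-0.40 ± 0.10 SE), a stress protein of cell cycle control and repair, and SUSD6 (-0.43 ± 0.10 SE), a membrane protein induced by DNA damage. PLK3, a polo-like kinase with only 3.32 ± 0.788 CPM in WT and 2.20 ± 0.208 CPM in ΔTUT4/7, changed by -0.56 ± 0.21 SE on the log2 scale and barely passed (adjusted p 0.0238). It no longer passed in DESeq2, nor when WT replicate 1, ΔTUT4/7 replicate 2 or ΔTUT4/7 replicate 3 was left out, where the adjusted p reached 0.145. PLK2, its relative, had 12.4, 14.1 and 12.6 CPM in the WT libraries and 13.2, 13.8 and 13.6 CPM in those of ΔTUT4/7. Its groups overlapped and no difference was detected (log2 fold change 0.05 ± 0.10 SE, adjusted p 0.680). Of the 9 genes in this group 8 fell, 5 of them at least 2-fold, with a median of -1.15. The shares over all tested genes were 29.0% lower and 12.4% at least 2-fold lower.

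**Figure D3:**
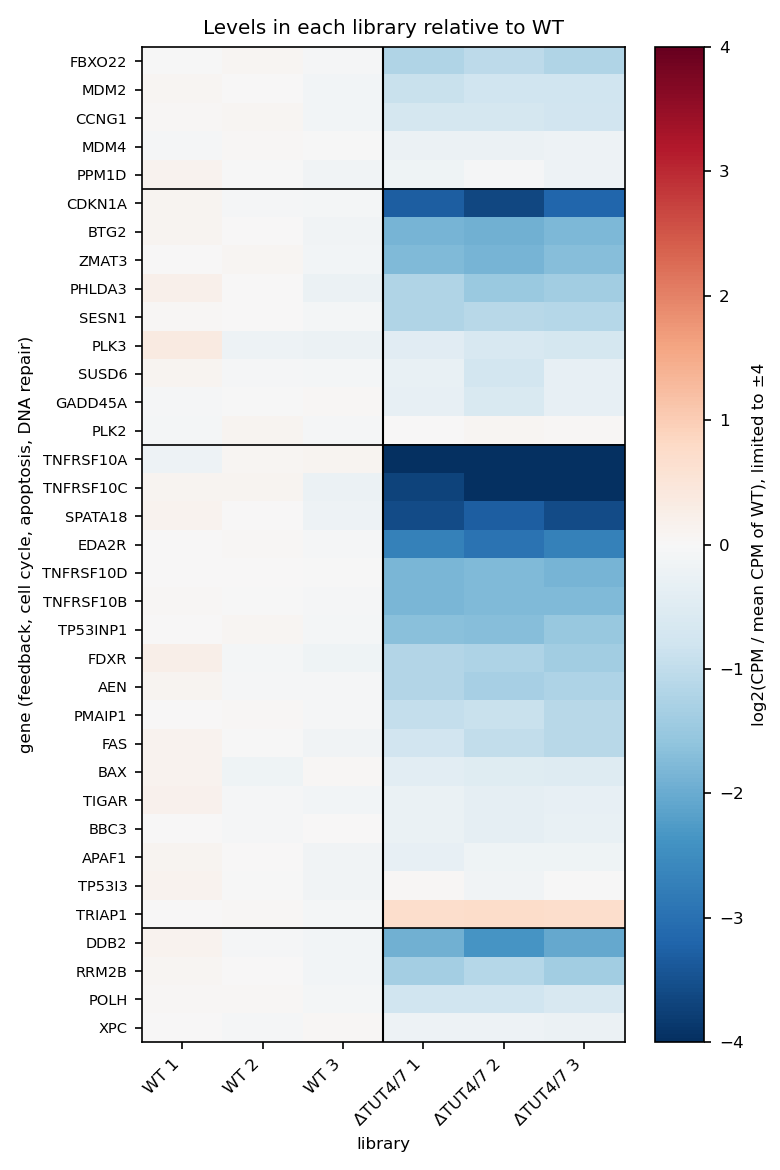
Level of each of the 35 genes (rows, by role) in each of the 6 libraries (columns) as log2 of CPM over the mean CPM of WT, with the colour limited to ±4. The 3 ΔTUT4/7 columns are blue in most rows and resemble each other, TRIAP1 is the one clearly red row, and TNFRSF10A is at the limit because it had 0 counts there.

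Apoptosis genes covered the receptors at the cell surface and the mitochondrial pathway. The 4 TRAIL receptor genes lie side by side on chromosome 8 between positions 23020133 and 23225102, so they share a locus and are not independent. TNFRSF10B (chromosome 8, 23020133 to 23069031) encodes the death receptor DR5, which signals to caspases, and had 257, 244 and 241 CPM in the WT libraries and 69.6, 72.9 and 72.2 CPM in those of ΔTUT4/7. TNFRSF10A (23190452 to 23225102), which encodes the other death receptor, DR4, had 153, 246 and 298 counts in WT and 0 in each ΔTUT4/7 library. Against a floor of 3 counts over the 3 libraries it was at least 216-fold lower. Its antisense transcript TNFRSF10A-AS1, which overlaps it, had 107 counts over the WT libraries and 0 over those of ΔTUT4/7.

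TNFRSF10D (23135588 to 23164027), a decoy receptor with a truncated death domain, had 96.0, 95.7 and 94.3 CPM in the WT libraries and 27.0, 27.8 and 26.3 CPM in those of ΔTUT4/7. TNFRSF10C (23102921 to 23117445), a decoy without a death domain, was scarce, with 26, 34 and 32 counts in WT and 3, 1 and 1 in ΔTUT4/7. The overlapping lncRNA AC107959.4 held more counts than TNFRSF10C, so the share of reads given to each is uncertain. All 4 genes were called lower, against 29.0% of all tested genes. In each of the 4, every ΔTUT4/7 library lay under every WT library, which held for 31.8% of all tested genes. Around them, the neighbourhood medians of expressed genes within 5 Mb lay between -0.43 and -0.42 on the log2 scale. The summed decoy counts over the summed death receptor counts had a log2 ratio of -1.41 ± 0.03 in WT and -1.40 ± 0.05 in ΔTUT4/7 (SD, n = 3). No difference was detectable (0.01 on the log2 scale, exact two-sided permutation p = 0.90). The ratio is dominated by TNFRSF10B and TNFRSF10D, whose log2 fold changes were -1.79 ± 0.05 SE and -1.82 ± 0.06 SE.

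EDA2R, a receptor for the ectodysplasin isoform EDA-A2, had 83.9, 86.7 and 80.4 CPM in the WT libraries and 12.8, 10.8 and 12.8 CPM in those of ΔTUT4/7. It was 6.86-fold lower (log2 fold change -2.78 ± 0.07 SE, adjusted p 9.45e-18). FAS, the receptor of FAS ligand, had 16.9 ± 1.74 CPM in WT against 8.73 ± 1.10 CPM in ΔTUT4/7, which is -0.93 ± 0.11 SE on the log2 scale. ACTA2 lies on the opposite strand over part of FAS and fell from 27.8 to 2.20 mean CPM, so the FAS value is uncertain where their reads overlap.

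**Figure D4:**
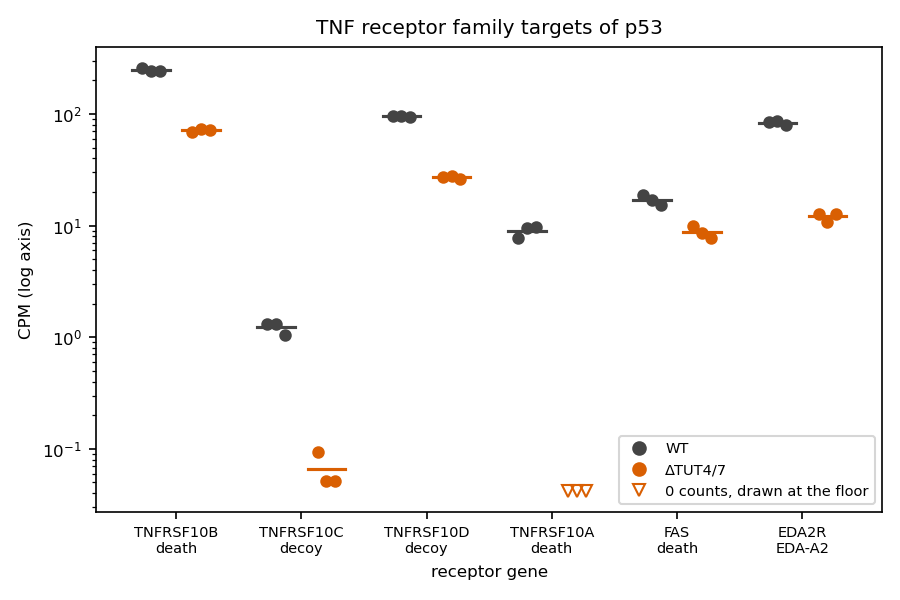
CPM on a log axis of 6 TNF receptor family genes in each WT and ΔTUT4/7 library, with bars at the mean of the 3 libraries and open triangles for 0 counts drawn at the floor of 0.0422 CPM. In all 6 genes the ΔTUT4/7 points lie under the WT points, and TNFRSF10A is at the floor in ΔTUT4/7.

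In the mitochondrial pathway, PMAIP1, BAX and APAF1 fell by less than 2-fold. PMAIP1, which encodes the BH3-only protein NOXA, had 74.9, 77.1 and 72.7 CPM in the WT libraries and 38.9, 40.0 and 34.8 CPM in those of ΔTUT4/7. Its log2 fold change of -0.98 ± 0.06 SE was just short of 2-fold. BAX, the effector that permeabilises the outer membrane, fell from 44.9, 36.1 and 42.2 CPM in WT to 30.4, 29.1 and 28.8 CPM in ΔTUT4/7, with a log2 fold change of -0.48 ± 0.08 SE. APAF1, the scaffold of the apoptosome, had 96.9 ± 9.09 CPM in WT against 82.8 ± 4.73 CPM in ΔTUT4/7, which is -0.23 ± 0.06 SE on the log2 scale (adjusted p 0.00613). BBC3, which encodes PUMA, had 6.06, 5.73 and 6.03 CPM in the WT libraries and 4.96, 4.59 and 4.80 CPM in those of ΔTUT4/7. Its groups did not overlap, but at 89 to 185 counts per library the difference did not pass the test (log2 fold change -0.31 ± 0.13 SE, adjusted p 0.0559). It was called lower in 4 of 14 alternatives. TP53I3, a quinone oxidoreductase, had 8.70 ± 0.785 CPM in WT against 8.51 ± 0.609 CPM in ΔTUT4/7 and an adjusted p of 0.900. Its reads may be shared with FAM228B, which overlaps it and held 77.7% as many counts.

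Other genes of this group act in stress responses, mitophagy and metabolism. SPATA18, a mitophagy factor, had 449, 546 and 556 counts in the WT libraries and 56, 41 and 34 counts in those of ΔTUT4/7. After scaling it was 11.1-fold lower (20.7 ± 2.38 CPM in WT against 1.87 ± 0.215 CPM in ΔTUT4/7), with no overlap between the groups. TP53INP1, a stress protein that promotes autophagy and cell death, fell by 1.63 on the log2 scale, AEN, an apoptosis-associated nuclease, by 1.24, and FDXR, the mitochondrial ferredoxin reductase, by 1.25. NDUFAF6 overlaps TP53INP1 on the other strand with 58.2% as many counts and a log2 fold change of -0.36, so the TP53INP1 value is uncertain where their reads overlap. TIGAR, a fructose-bisphosphatase that lowers glycolysis, had 81.1 ± 8.62 CPM in WT against 65.1 ± 2.08 CPM in ΔTUT4/7, which is -0.31 ± 0.06 SE on the log2 scale. TRIAP1, a small mitochondrial protein that counters apoptosis, was the one gene that rose. It had 28.6, 28.9 and 26.6 CPM in the WT libraries and 46.1, 46.9 and 45.6 CPM in those of ΔTUT4/7. The log2 fold change was 0.72 ± 0.06 SE, while 112 expressed genes within 5 Mb of it on chromosome 12 had a median of 0.79, so TRIAP1 stood at -0.07 relative to its neighbourhood. Of the 17 apoptosis genes 14 fell, 9 of them at least 2-fold, 1 rose and 2 were not called, with a median of -1.24. The shares over all tested genes were 29.0% lower, 12.4% at least 2-fold lower and 28.6% higher.

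All 4 DNA repair genes were called lower, against 29.0% of all tested genes. DDB2, which recognises ultraviolet damage for nucleotide excision repair, had 90.9, 80.2 and 75.9 CPM in the WT libraries and 21.6, 16.2 and 19.7 CPM in those of ΔTUT4/7. The groups lay far apart, at a log2 fold change of -2.09 ± 0.10 SE (adjusted p 5.17e-09). RRM2B, the ribonucleotide reductase subunit that supplies deoxynucleotides outside S phase, had 147, 142 and 131 CPM in the WT libraries and 54.8, 64.1 and 54.0 CPM in those of ΔTUT4/7, a change of -1.28 ± 0.06 SE on the log2 scale. POLH, the translesion polymerase eta, had 86.2 ± 3.94 CPM in WT against 51.6 ± 3.62 CPM in ΔTUT4/7 and changed by -0.74 ± 0.06 SE. GTPBP2 overlaps POLH on the other strand with 86.3% as many counts and itself had a log2 fold change of -0.64. XPC, the damage sensor of nucleotide excision repair, changed least, from 85.0, 80.5 and 85.5 CPM in WT to 72.5, 72.3 and 70.5 CPM in ΔTUT4/7, with a log2 fold change of -0.22 ± 0.05 SE (adjusted p 0.000722). The median of the 4 genes was -1.01.

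The position of the genes was compared with their change, because fold changes in these lines differed between chromosome regions. Between 15 and 205 expressed genes lay within 5 Mb of each gene. Their median log2 fold change ran from -0.72 beside AEN to 0.79 beside TRIAP1. All 35 genes lay under the median of their own neighbourhood, against 55.3% of all tested genes and 50.1% of those whose mean count reached 50. With that median subtracted, 18 genes were at least 2-fold lower and 0 higher, and the median over the 35 genes was -1.04. At least 2-fold under their neighbourhood lay 13.5% of all tested genes and 7.78% of those whose mean count reached 50. The change of AEN was -0.52 after subtraction and that of FBXO22 -0.80, while CDKN1A stood at -3.38. Of the 35 genes, 17 overlapped no other counted gene, with names of repeated small RNAs left aside. Of these 17, 13 were called lower and 1 higher, with a median of -1.24, against 29.0% lower and 28.6% higher over all tested genes. In 8 genes, XPC and TIGAR among them, an overlapping gene held at least 10% of their count, and 7 of these were called lower, with a median of -0.84.

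The genes that act on p53 moved in both directions. Of 36 p53 family members and regulators, 10 were called lower, 20 higher and 6 not called, with a median of 0.17. The shares over all tested genes were 29.0% lower and 28.6% higher, and 31.7% and 39.2% where the mean count reached 50. With library size alone as the scaling, 13820 of the 23952 tested genes were called, 8272 of them lower. There, 12 of the 36 genes were lower and 14 higher, and their median was 0.05, against -0.13 over all tested genes. The 4 with the smallest p all rose. They were NPM1, a nucleolar chaperone that binds ARF (767 ± 16.9 CPM in WT against 1714 ± 120.4 CPM in ΔTUT4/7), the arginine methyltransferase PRMT5 (114 ± 6.05 CPM in WT against 222 ± 4.002 CPM in ΔTUT4/7), the corepressor TRIM28 (212 ± 13.5 CPM in WT against 423 ± 18.9 CPM in ΔTUT4/7) and SIRT1, a deacetylase of p53 (70.5 ± 3.13 CPM in WT against 142 ± 6.49 CPM in ΔTUT4/7). Their log2 fold changes were 1.16, 0.96, 1.00 and 1.00, and in each every ΔTUT4/7 library lay above every WT library, as for 30.9% of all tested genes. The neighbourhoods of these 4 genes had medians of 0.24, -0.05, 0.35 and 0.41.

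Targets of p53 outside the 35 genes moved in both directions. Among all tested genes, 29.0% were called lower, 28.6% higher, 12.4% at least 2-fold lower and 5.90% at least 2-fold higher. Of the 45 targets tested, 23 were called lower, 14 higher and 8 not called. At least 2-fold lower were 12 of them, and 4 were at least 2-fold higher. Their median log2 fold change was -0.35. With only genes whose mean count reached 50 in the fit, 11106 of 15575 genes were called, 5571 of them lower. Fewer than 45 targets were left in that fit. Their median was -0.16, with 18 lower and 8 higher. The 4 with the smallest p all fell. They were SLC12A4, a potassium-chloride cotransporter (47.3 ± 2.57 CPM in WT against 12.4 ± 0.501 CPM in ΔTUT4/7), the p53-induced lncRNA PURPL (108 ± 5.90 CPM in WT against 37.9 ± 3.18 CPM in ΔTUT4/7), MIR34AHG, the host gene of miR-34a (75.3 ± 7.17 CPM in WT against 11.8 ± 1.47 CPM in ΔTUT4/7), and the ribosomal protein paralog RPS27L (56.3 ± 2.84 CPM in WT against 26.6 ± 1.37 CPM in ΔTUT4/7). Their log2 fold changes were -1.93, -1.51, -2.68 and -1.08.

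Cell cycle genes that p53 is known to repress through p21 did not move one way. Of 30 genes, 17 were called higher and 9 lower, and 4 were not called, with a median of 0.16. Over all tested genes 28.6% were called higher and 29.0% lower. Among tested genes whose mean count reached 50, the shares were 39.2% higher and 31.7% lower. With library size alone as the scaling, 13820 of the 23952 tested genes were called, 8272 of them lower. There, 12 of the 30 genes were higher and 10 lower, and their median was 0.05, against -0.13 over all tested genes. CDC25A, a phosphatase that activates cyclin-dependent kinases (92.5 ± 4.38 CPM in WT against 211 ± 4.15 CPM in ΔTUT4/7), the transcription factor FOXM1 (99.7 ± 3.47 CPM in WT against 158 ± 5.48 CPM in ΔTUT4/7) and RRM2, a ribonucleotide reductase subunit (227 ± 8.61 CPM in WT against 351 ± 17.7 CPM in ΔTUT4/7), rose by log2 fold changes of 1.19, 0.67 and 0.63. PLK4, the kinase of centriole duplication, fell from 94.0, 104 and 103 CPM in WT to 49.4, 48.6 and 49.7 CPM in ΔTUT4/7. This is -1.03 ± 0.05 SE on the log2 scale, in a neighbourhood whose median was -0.80. The neighbourhoods of CDC25A, FOXM1 and RRM2 had medians of 0.52, 0.32 and -0.02.

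**Figure D5:**
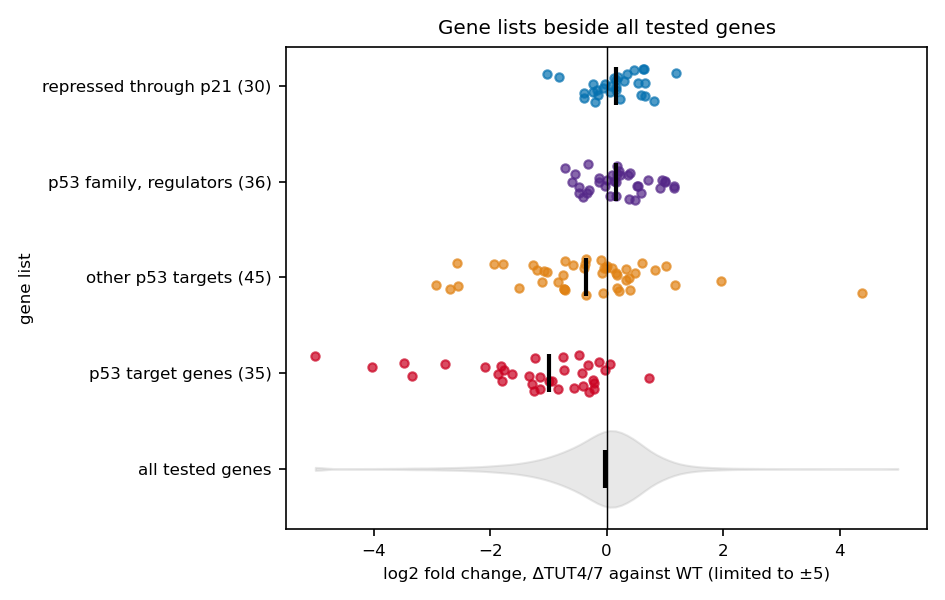
Log2 fold change in ΔTUT4/7 against WT (x axis, limited to ±5) of each tested gene in 4 lists, with the distribution of all 23952 tested genes in grey and a black bar at each median. The 35 p53 targets have the lowest median at -0.98, other targets lie at -0.35, and the regulators and the genes repressed through p21 at 0.17 and 0.16.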

How the data were processed

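Per the labels and the study's methods, the authors aligned paired-end reads of rRNA-depleted total RNA to hg38 with STAR 2.7.3a and quantified Ensembl release 102 genes in Partek Flow 10.0.22. The deposited table holds the authors' estimated counts, of which 45.2% to 50.0% per library were not whole (tolerance 1e-09), so some reads were split between features. How reads were split and the read strand were not given in the sources used here. A second deposited table holds the authors' own comparison (p-values, fold changes and group means) and was not used.

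Estimated counts were rounded. A gene entered the test if its highest count in the 6 libraries was above 12, the study's limit (23952 of 30270 genes). edgeR 4.0.16 in R 4.3.3 was used (TMM factors, glmQLFit with robust estimation, glmQLFTest with group as the only term, Benjamini-Hochberg adjustment over all tested genes). Standard errors of log2 fold changes come from the F statistic. CPM are means ± SD over 3 libraries, and RPKM divide CPM by the union exon length in GENCODE release 44, which held all 35 genes. Gene ends are printed with 1 base taken off the table's value, which then equalled the GENCODE end for 32 of the 35 genes. A group with 0 counts was given a floor of 3 counts, which covers counting error only. On simulated counts with the means and dispersions of these libraries, 97% of genes changed 2-fold were recovered (100 of 22982). Of genes changed by 0.5 on the log2 scale 74% were recovered (100 of 22982), and 0.127% of unchanged genes were called. The changed genes all had a mean count of 50 or more and went up as often as down. In the data 13813 of 23952 genes were called, so these rates may not carry over.

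The members, roles, lists and tests were chosen with earlier results of these data known. Named genes are the 35 members, TUT4, TUT7 and the 4 with the smallest p in each other list. A further gene named by the rule is not reported here. Genes that overlap a member, the cell markers and the targets in the closing observations fall outside this rule and were named after their values were seen. Replicate numbers did not pair the libraries. DESeq2 1.42.0, limma 3.58.1 on log2(CPM + 1), other scalings and filters, a replicate block and each library left out served as alternatives. The ratio of counts between genes was compared with an exact permutation test over libraries.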

Additional observations from a re-analysis of the deposited data

How the results depend on the processing

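The number of the 35 genes called lower stayed between 29 and 32 over 14 alternative fits, the number called higher stayed at 1 (TRIAP1), and the number at least 2-fold lower stayed between 17 and 19. The share of all tested genes called lower ran from 24.3% (no count filter) to 35.8% (mean count of 50 or more). It was 34.5% on library size alone and 33.9% with upper-quartile factors, the fits with 32 genes lower. With the change of neighbouring genes subtracted, 18 of the 35 genes were at least 2-fold lower, and TRIAP1 turned from 0.72 to -0.072. Without TMM, on library size, the median of all tested genes went from -0.02 to -0.13 (log2) and that of the 35 genes from -0.98 to -1.10. The log2 difference in the decoy to death receptor ratio, 0.0051, lay between -0.016 (ΔTUT4/7 replicate 1 left out) and 0.033 (ΔTUT4/7 replicate 3 left out). Its sign also turned when WT replicate 1 or ΔTUT4/7 replicate 2 was left out. Its exact permutation p was 0.40 or more throughout. The difference in the MDM2 to MDM4 ratio ran from -0.65 to -0.55 when a library was left out. With the replicate number as a block, 30 genes were called lower, 1 higher and 17 at least 2-fold lower, as without it. Deviations of same-numbered libraries correlated with r of -0.02 to 0.05, so the numbers gave no pairing. Of the 35 single-gene results, those of PPM1D, BBC3 and PLK3 crossed the threshold in at least 1 alternative. Filtering on a mean count of 50 or more left out TNFRSF10C. For TNFRSF10A, TNFRSF10C and PLK3, depth limits the precision of the fold change.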

Other observations

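Among p53 targets outside the 35 genes, 4 were at least 2-fold higher in ΔTUT4/7, against 5.90% of all tested genes. They were singled out after their values were seen. SCO2, an assembly factor of cytochrome c oxidase, had 6 counts over the WT libraries and 120 over those of ΔTUT4/7. SERTAD1, a transcriptional cofactor, had 3.01 ± 0.214 CPM in WT against 6.77 ± 0.434 CPM in ΔTUT4/7, with no overlap between groups. IGFBP3, which binds insulin-like growth factors, had 0.350 ± 0.175 CPM in WT against 1.40 ± 0.446 CPM in ΔTUT4/7, and the RNA sensor TLR3 1.41 ± 0.182 CPM in WT against 2.89 ± 0.461 CPM in ΔTUT4/7. PRKAB1, a subunit of AMP-activated kinase near TRIAP1 on chromosome 12 and likewise singled out, had 24.5 ± 1.92 CPM in WT against 43.5 ± 0.603 CPM in ΔTUT4/7. Its log2 fold change was 0.83 ± 0.07 SE in a neighbourhood whose median was 0.79, as it was for TRIAP1.

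Among those that fell, 3 were also singled out after their values were seen. The cytokine genes GDF15 and LIF had 34 and 142 counts over the WT libraries and 4 and 23 over those of ΔTUT4/7. NEAT1, a nuclear lncRNA induced by p53, had 855 ± 135 CPM in WT against 248 ± 16.2 CPM in ΔTUT4/7, and its log2 fold change was -1.78 ± 0.13 SE. WT replicate 1 was highest for NEAT1, at 1004 CPM against 742 and 820 CPM in the others, and the ΔTUT4/7 libraries had 244, 235 and 266 CPM.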
